A study of Mus musculus with 6 samples.

Results

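The genes examined here encode the nuclear subunits of mitochondrial complexes II, III, IV and V, measured in mouse lung after 7 days of hypoxia with and without Nfat5 in endothelial cells. They were taken by gene symbol: names matching Sdha to Sdhd, those beginning with Uqcr, Cyc1, those beginning with Cox4 to Cox8 except Cox4i2, and those beginning with Atp5. The rule found 44 genes of the 24704 named on the arrays, each with 1 probe set. They fell into 4 genes of complex II, 8 of complex III, 17 of complex IV and 15 of complex V. Of the 44, 41 code for protein and 3 are pseudogenes (Cox5b-ps, Atp5c1-ps and Atp5l-ps1). Subunits encoded by the mitochondrial genome, and nuclear subunits without a named probe set in the table such as Cox7c and Uqcrb, were not analysed here.

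The study compared 3 arrays from control lungs (Nfat5fl/fl, given the solvent miglyol) with 3 from lungs of mice with an endothelial knockout (Nfat5(EC)-/-, given 1 mg tamoxifen per day on 5 days). All mice had floxed Nfat5 alleles, were adult males and females of 10 to 12 weeks at ablation, rested 2 to 3 weeks and then lived in hypoxia for 7 days. Genotype and tamoxifen therefore differ together between the groups and cannot be told apart. The sources used here do not name the Cre driver, and the labels give no normoxic arrays. The series design speaks of 4 mice per group and states that lungs with stray tissue, or with too weak an expression response to hypoxia, were dropped. The arrays are thus in part selected on expression.

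Electrons from nutrients enter the inner mitochondrial membrane through complex I and through complex II, succinate dehydrogenase, which is also an enzyme of the citric acid cycle. Complex III, the cytochrome bc1 complex, passes them to cytochrome c, and complex IV, cytochrome c oxidase, hands them to oxygen. The protons pumped on the way drive complex V, the ATP synthase. Oxygen is the last acceptor of the chain, and low oxygen is known to alter some complex IV subunits. NFAT5 is a transcription factor best known for the response to osmotic stress.

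Values are log2 expression per probe set as deposited by the authors after RMA, so 1 unit is a 2-fold step. Levels of different genes are not read against each other as amounts of RNA. They are used to mark dim and bright genes and to choose genes to name. The arrays shared 1 distribution, with a lower quartile of 2.02 and a median of 2.98. Differences are knockout minus control, with the standard error (SE) and Benjamini-Hochberg adjusted p of limma over all 24704 genes. A gene is said to have risen or fallen where its adjusted p was under 0.05.

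Nfat5 stood at 6.51 ± 0.18 on control and 4.28 ± 0.34 on knockout arrays (SD, n = 3 each), and the groups did not overlap. Over all genes, control arrays correlated with each other at 0.968 to 0.970, knockout arrays at 0.916 to 0.939, and arrays of different groups at 0.829 to 0.919. Differences ran along gene span, at a Spearman rho of −0.32 over 19683 protein-coding genes. The median of 106 snoRNAs was 4.01 to 4.20 on control and 6.43 to 7.43 on knockout arrays. Xist was 8.22 on control replicate 1 and 2.03 to 2.37 elsewhere. Of Y-linked genes, Kdm5d read 1.57, 4.02 and 3.94 on control replicates 1, 3 and 4, and 2.08, 1.96 and 2.16 on the knockout replicates. In the same order, Uty read 2.22, 4.90 and 4.48 against 2.05, 3.29 and 4.30. Eif2s3y read 1.63, 4.80 and 4.59 against 2.66, 3.43 and 3.97. The part of these features in the results was not tested, except that a fit without the trend in gene span is given below.

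Of the 44 genes, 14 rose and 3 fell in the knockout lungs. Over all genes 12.5% rose, 13.0% fell and 25.5% changed in either direction. The 44 had a median log2 difference of 0.23, against 0.04 over all genes. Rises were found in every complex and falls in complexes II, III and IV. The 14 that rose were Sdhb, Cyc1, Uqcrc1, Uqcrq, Cox4i1, Cox5a, Cox5b, Cox6b2, Cox7a2, Atp5d, Atp5e, Atp5g3, Atp5k and Atp5mpl. Those that fell were Sdha, Uqcrc2 and Cox8b. In whole lung, fewer cells of a type and less RNA per cell cannot be told apart. The knockout and control arrays did not overlap at 16 genes with the knockout higher and 4 with it lower, 20 of 44 in all, where over all genes the shares were 21.9%, 20.0% and 41.9%. A separate fit took only genes above the median of mean level, with the adjustment made over those 12352 genes alone. In it 13 of 38 members rose and 3 fell, and 23.3% of its genes rose and 23.5% fell. That mean includes the knockout arrays, so a gene can enter through the group where it is higher. Its shares are therefore not read against those of the main fit.

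Fewer members rose when any 1 array was left out. Each such fit has only 2 arrays in 1 group. The loss of a replicate and the part of that array therefore cannot be told apart. Estimates moved little for some called members (Atp5mpl 0.60 to 0.69) and more for others (Cox5b 0.80 to 1.44). The number that rose was 4 without control replicate 1, 4 without control replicate 3, 8 without control replicate 4 and 10 without any 1 knockout array. The number that fell was 1 without control replicate 3 and 2 or 3 without any other. These counts include genes that did not pass with all arrays. Cox7b fell without control replicate 1 (limma, adjusted p = 0.046) and Sdhd without knockout replicate 3 (0.049). Cox6b1 rose without knockout replicate 1 (0.034) and Atp5o without knockout replicate 3 (0.0052). Over all genes the share that rose went from 12.5% to 6.18% without control replicate 1, 5.63% without control replicate 3 and 8.65% without control replicate 4. It was 12.3%, 12.3% and 10.6% without knockout replicates 1, 3 and 4. The share called in either direction was 12.7% without control replicate 1 and 11.7% without control replicate 3. The drops in members and in all genes were not tested against each other. Uqcrc1, Uqcrc2, Cox4i1, Cox7a2 and Atp5k passed without each of the 6 arrays and under every other setting tried at the threshold of 0.05.

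**Figure D1:**
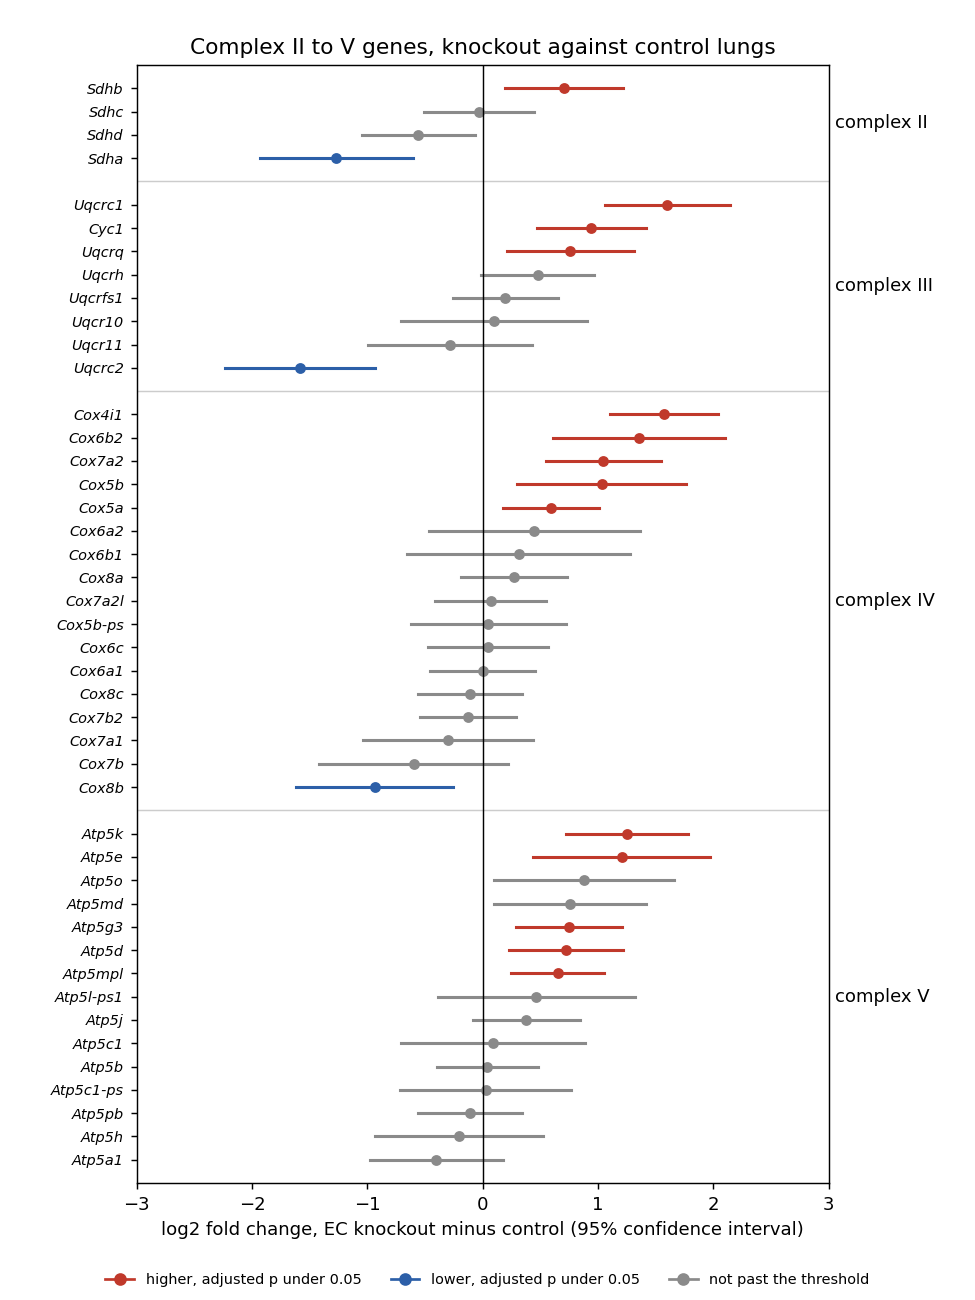
Log2 difference between knockout and control lungs (horizontal axis, log2 units) for the 44 genes, grouped by complex; points are estimates and lines 95% confidence intervals from limma, with 3 arrays per group. The widest separation within a complex is in complex III, between Uqcrc1 at 1.60 and Uqcrc2 at −1.58.

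Complex II has a soluble catalytic head, made of the flavoprotein Sdha and the iron-sulfur protein Sdhb, and a membrane anchor of Sdhc and Sdhd. The genes of the head moved in opposite directions. Sdha (Entrez gene 66945), which oxidises succinate, read 7.46, 7.33 and 7.40 on control replicates 1, 3 and 4, against 6.56, 6.40 and 5.42 on knockout replicates 1, 3 and 4. Every knockout array lay below every control, and knockout replicate 4 was the lowest. The difference was −1.27 ± 0.29 (SE; limma, adjusted p = 0.014), a 2.41-fold fall. Its adjusted p was 0.061 without control replicate 1 and 0.054 without control replicate 3.

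Sdhb (67680), which carries electrons from the flavin towards ubiquinone, stood at 5.37, 5.52 and 5.84 in controls and at 6.31, 5.98 and 6.56 in knockouts. The groups did not overlap, but the highest control and the lowest knockout lay close together. Sdhb rose by 0.70 ± 0.23, or 1.63-fold (limma, adjusted p = 0.048). This call was near the threshold: it passed without knockout replicate 3 and missed without any other array (adjusted p 0.057 to 0.17), and also with an intensity trend, array weights or the span trend removed. The differences of Sdhb and Sdha lay 1.97 log2 units apart. That pair and the pair of complex III below were chosen after their values were seen, so their distances are given with no test.

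The anchor genes did not pass. Sdhd stood at 4.96, 5.12 and 5.12 in controls and 4.17, 4.82 and 4.54 in knockouts, without overlap, at −0.56 ± 0.22 (limma, adjusted p = 0.091). Sdhc, the other anchor subunit, overlapped between the groups at −0.03, with a 95% confidence interval of −0.51 to 0.44. Complex II thus held a riser, a faller and a pair that missed the threshold.

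The promoters of the catalytic genes are shown because their transcripts moved apart. The windows run from 250 bases before to 50 after the annotated start, from RefSeq on GRCm38.p6, and are written on the gene's own strand. Sdha lies at chr13:74350191-74350490 on the minus strand and Sdhb at chr4:140961021-140961320 on the plus strand. Capitals mark matches on either strand to the palindromic core bound by NRF1, to CCGGAAG (bound by ETS factors such as GABPA), AAGATGGC (YY1) or AAGGTCA (oestrogen-related receptors).
Sdha: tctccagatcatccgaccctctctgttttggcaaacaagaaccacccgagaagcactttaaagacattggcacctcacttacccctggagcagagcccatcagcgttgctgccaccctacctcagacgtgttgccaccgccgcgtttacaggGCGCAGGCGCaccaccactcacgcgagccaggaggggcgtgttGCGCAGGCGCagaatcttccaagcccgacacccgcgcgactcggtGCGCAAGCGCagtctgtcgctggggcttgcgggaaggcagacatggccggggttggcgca
Sdhb: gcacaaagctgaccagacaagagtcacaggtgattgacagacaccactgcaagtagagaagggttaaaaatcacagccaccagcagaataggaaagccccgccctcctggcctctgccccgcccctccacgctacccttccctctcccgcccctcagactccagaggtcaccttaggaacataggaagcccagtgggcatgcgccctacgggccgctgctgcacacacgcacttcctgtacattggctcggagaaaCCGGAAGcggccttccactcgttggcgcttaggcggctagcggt
The Sdha window held 3 matches to the NRF1 core, beginning 98, 55 and 10 bases before the start. The Sdhb window held 1 ETS match, beginning at base 7 after the start, and its letters include no NRF1 core.

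In complex III the core proteins Uqcrc1 and Uqcrc2, homologues of mitochondrial processing peptidase that face the matrix, also moved apart. Uqcrc1 (22273) read 5.32, 5.56 and 6.12 in the controls, in the same order, against 7.11, 7.37 and 7.33 in the knockouts. All knockout arrays were high and lay close together. It rose by 1.60 ± 0.24, or 3.04-fold (limma, adjusted p = 0.0030). Uqcrc2 (67003) stood at 6.64, 6.64 and 6.72 in controls and at 4.46, 5.15 and 5.64 in knockouts. The controls were nearly level and every knockout array was lower, with replicate 1 the lowest. Its log2 difference was −1.58 ± 0.29, a 3.00-fold fall (limma, adjusted p = 0.0056). The differences of the core genes were 3.19 log2 units apart.

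The Uqcrc1 window, chr9:108936398-108936697 on the plus strand of GRCm38.p6, is shown as that of the gene with the highest log2 difference of the 44; no window of Uqcrc2 was used.
Uqcrc1: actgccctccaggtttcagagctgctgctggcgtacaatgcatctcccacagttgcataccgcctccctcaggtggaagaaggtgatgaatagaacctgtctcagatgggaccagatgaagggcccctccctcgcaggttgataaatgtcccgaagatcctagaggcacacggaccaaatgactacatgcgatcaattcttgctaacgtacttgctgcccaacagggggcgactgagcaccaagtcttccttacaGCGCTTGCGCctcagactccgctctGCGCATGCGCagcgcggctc
It held 2 matches to the NRF1 core, beginning at bases 6 and 31 after the start. The Sdha and Uqcrc1 windows were chosen by the values of these genes. Whether the core goes with a direction of change was not tested.

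The redox subunits of complex III are cytochrome c1 (Cyc1) and the Rieske iron-sulfur protein (Uqcrfs1). Cyc1 (66445) stood at 4.64, 4.78 and 5.06 in controls and at 5.61, 5.69 and 6.005 in knockouts, all above the controls. It rose by 0.94 ± 0.21, or 1.92-fold (limma, adjusted p = 0.012), with an adjusted p of 0.058 without control replicate 1 and 0.056 without control replicate 3. Uqcrfs1 overlapped between the groups, at 0.20 ± 0.20. Cytochrome c itself (Cycs) had control and knockout means of 1.82 and 1.87, below the arrays' lower quartile, and did not pass.

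Among the small subunits of complex III, Uqcrq (22272), which lies near the ubiquinone site, stood at 3.88, 3.89 and 3.87 in controls and at 4.39, 4.37 and 5.15 in knockouts. Knockout replicate 4 was well above the other knockouts. Uqcrq rose by 0.76 ± 0.24 (limma, adjusted p = 0.049), and missed without any 1 control or without knockout replicate 4 (adjusted p 0.092 to 0.14). The hinge protein gene Uqcrh had no overlap between the groups but did not pass, at 0.48 ± 0.22 (limma, adjusted p = 0.14). Uqcr10 and Uqcr11 overlapped, at 0.10 ± 0.36 and −0.29 ± 0.31. So 3 of the 8 genes of complex III rose, 1 fell and 4 did not pass.

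**Figure D2:**
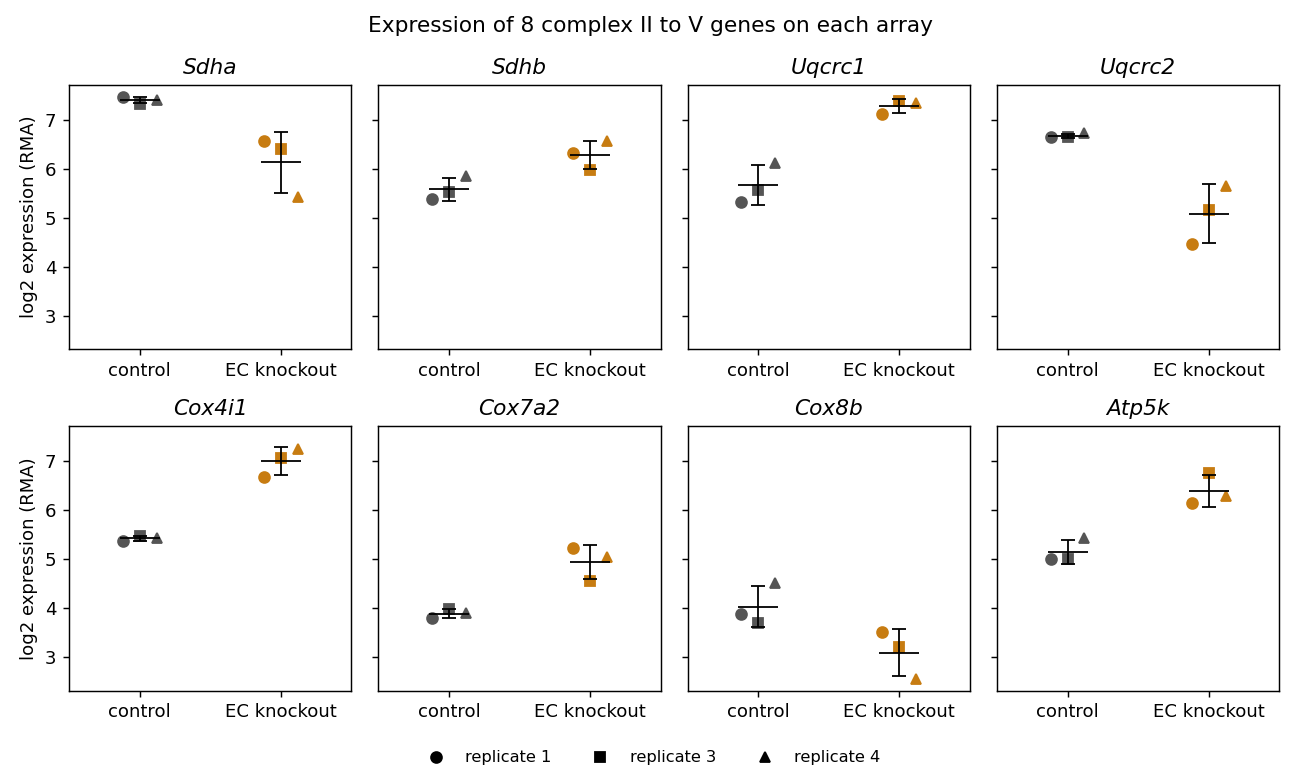
Log2 expression on each array (vertical axis) for 8 genes that passed the threshold, by group; marks show the replicate number, and bars the mean and SD of 3 arrays. Sdha, Uqcrc2 and Cox8b are lower on every knockout array than on any control, and Sdhb, Uqcrc1, Cox4i1, Cox7a2 and Atp5k higher.

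Complex IV had 5 rises and 1 fall among 17 genes. Its catalytic core is encoded in mitochondrial DNA, and the nuclear genes measured here encode the subunits around that core, several as tissue-specific isoforms. Among the 10 widely expressed forms 4 rose and 0 fell, with 6 not passing, where over all genes 12.5% rose and 13.0% fell. Cox4i1 (12857), the usual form of the largest nuclear subunit and a site of regulation by ATP, stood at 5.36, 5.47 and 5.43 in controls and at 6.68, 7.05 and 7.24 in knockouts. Controls were tight and all knockouts far above them. The rise was 1.57 ± 0.21, or 2.97-fold (limma, adjusted p = 0.0023).

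Its isoform Cox4i2, which hypoxia is known to induce in lung and which the selection rule leaves out, also rose, by 1.09 ± 0.22 (limma, adjusted p = 0.0088). Controls lay at 4.63 to 4.92 and knockouts at 5.63 to 6.21. Both isoforms of subunit 4 were thus higher in the knockout. All arrays came from hypoxic mice, so these values do not measure an exchange of isoforms by hypoxia.

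Subunit 7a has a form of most tissues (Cox7a2), a muscle form (Cox7a1) and a relative that helps to build supercomplexes with complex III (Cox7a2l). Cox7a2 (12866) stood at 3.79, 3.98 and 3.89 in controls and at 5.21, 4.55 and 5.04 in knockouts. The groups did not overlap, and Cox7a2 rose by 1.04 ± 0.22, or 2.06-fold (limma, adjusted p = 0.010). Cox7a1 and Cox7a2l overlapped, at −0.30 ± 0.33 and 0.07 ± 0.21. These values do not show that the 3 genes responded differently, since that was not tested.

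The subunits 5a and 5b sit on the matrix side. Cox5a (12858) stood at 5.33, 5.08 and 5.23 in controls and at 5.83, 5.90 and 5.67 in knockouts, and rose by 0.59 ± 0.18 (limma, adjusted p = 0.045). This was the smallest difference among the 14 that rose. Cox5b (12859), which binds zinc, stood at 2.43, 2.17 and 2.42 in controls and at 3.72, 3.83 and 2.57 in knockouts. Knockout replicate 4 lay just above the controls, and the control values were close to the arrays' lower quartile, so the size of the difference is uncertain. Cox5b rose by 1.03 ± 0.32 (limma, adjusted p = 0.046). Cox5a passed without knockout replicate 4 alone and Cox5b likewise; without any other array both missed (adjusted p 0.071 to 0.17). The pseudogene Cox5b-ps overlapped between the groups at 0.05 ± 0.30, with means of 6.63 in controls and 6.68 in knockouts. The means of Cox5b were 2.34 and 3.37. How far transcripts of gene and pseudogene share probes was not tested, so which probe set reads the Cox5b transcript is not known.

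Subunits 6a, 6b, 6c, 7b and 8 gave few calls. Cox6a1 and Cox8a, the common forms of 6a and 8, overlapped between the groups. Cox6a1 stood at 9.43 ± 0.19 (SD, n = 3) in controls, against 9.43 ± 0.18 (n = 3) in knockouts, with a 95% confidence interval of the difference from −0.45 to 0.45. Cox8a differed by 0.27 (−0.19 to 0.73). Cox6b1, which faces cytochrome c, spread widely in the knockouts, at 3.88, 5.22 and 5.86 against 4.61 to 4.81 in controls. Cox6c differed by 0.05 ± 0.23. Cox7b, an X-linked gene, stood at 1.22, 2.39 and 2.64 in controls and at 1.28 to 1.87 in knockouts, with 4 of 6 arrays below the lower quartile, so a change in it may have been missed.

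Isoforms of other tissues were measured too. Cox6b2, the testis form of 6b, stood at 2.88, 2.37 and 3.07 in controls and at 4.12, 3.51 and 4.77 in knockouts. It rose by 1.36 ± 0.33, or 2.56-fold (limma, adjusted p = 0.017), with an adjusted p of 0.058 without control replicate 1 and 0.079 without control replicate 3. The testis forms Cox7b2 and Cox8c lay below the lower quartile in all 6 arrays, and did not pass. Cox6b2 was thus the only testis form of the 3 with values above the lower quartile.

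Cox8b (12869), the form of subunit 8 in striated muscle and brown fat, stood at 3.89, 3.70 and 4.50 in controls and at 3.51, 3.21 and 2.56 in knockouts. The groups did not overlap, though control replicate 3 and knockout replicate 1 were near each other. The difference was −0.94 ± 0.30, a 1.91-fold fall (limma, adjusted p = 0.049). It passed without knockout replicate 1 and missed without any other array (adjusted p 0.075 to 0.16), and under 3 of the other settings tried. The other muscle forms, Cox6a2 at 0.45 ± 0.40 and Cox7a1 at −0.30 ± 0.33, overlapped between the groups. Control replicate 4 was the highest control for all 3 muscle forms.

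Markers of tissues that use these isoforms moved as follows. Ucp1, the uncoupling protein of brown fat, stood at 5.16, 5.24 and 4.44 in controls and at 3.20, 2.94 and 1.73 in knockouts. It was the member of the 7-gene brown fat list that fell, at −2.33 ± 0.39 (limma, adjusted p = 0.0043), while 0 rose. The summed level of that list ran from 6.03 to 6.70 on control arrays and from 5.53 to 6.02 on knockout arrays. Of 12 striated muscle genes, 3 rose (Myl4, Myh6 and Actc1) and 1 fell (Ryr2), with summed levels of 8.25 to 9.36 and 8.86 to 9.85. None of the 12 was below the lower quartile on all 6 arrays. The part of such tissue in the values of Cox8b, Cox7a1 and Cox6a2 was not tested.

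Complex V, the ATP synthase, had 5 rises and 0 falls among 15 genes, where over all genes 12.5% rose and 13.0% fell. Its median log2 difference was 0.47, against 0.04 over all genes. The rises lay in the head with its central stalk and in the membrane part. In the head, the catalytic genes Atp5a1 and Atp5b did not pass, at −0.40 ± 0.26 and 0.04 ± 0.19. Atp5b stood at 8.63 ± 0.22 (SD, n = 3) in controls, against 8.67 ± 0.04 (n = 3) in knockouts, with a 95% confidence interval of the difference from −0.39 to 0.48. Atp5c1, the gamma subunit that turns within the head, overlapped at 0.09 ± 0.35.

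The small genes of the central stalk rose. Atp5d (66043), the delta subunit, stood at 4.78, 4.92 and 5.41 in controls and at 5.77, 5.63 and 5.88 in knockouts, a rise of 0.72 ± 0.22 (limma, adjusted p = 0.040). Atp5e (67126), the epsilon subunit, stood at 4.11, 4.60 and 4.54 in controls and at 4.82, 5.88 and 6.16 in knockouts. Knockout replicate 1 lay near the controls, and the rise was 1.21 ± 0.34, or 2.31-fold (limma, adjusted p = 0.030). Atp5d passed without control replicate 4 alone and Atp5e without knockout replicate 1 alone. Leaving out any other array raised the adjusted p to 0.054 to 0.15 for Atp5d and 0.069 to 0.12 for Atp5e.

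In the membrane part, 3 of 4 genes rose and all 4 had groups without overlap and the knockout higher. Over all genes 12.5% rose and 21.9% had no overlap with the knockout higher. Whether these 4 genes differ from all genes was not tested. Atp5g3 (228033), which encodes the proton-carrying c ring, stood at 6.12, 5.99 and 6.45 in controls and at 6.88, 7.10 and 6.82 in knockouts. The difference was 0.75 ± 0.20, or 1.68-fold (limma, adjusted p = 0.027). Atp5k (11958), subunit e, which joins synthases into dimers, stood at 4.99, 5.00 and 5.42 in controls and at 6.14, 6.76 and 6.28 in knockouts. All knockouts were clearly above the controls, and Atp5k rose by 1.25 ± 0.23, or 2.38-fold (limma, adjusted p = 0.0062). The small membrane subunit gene Atp5mpl (70257) stood at 4.52, 4.60 and 4.45 in controls and at 5.26, 5.12 and 5.14 in knockouts.

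Atp5mpl had the tightest groups of the risers in complex V and rose by 0.65 ± 0.18 (limma, adjusted p = 0.027). It missed without any 1 control or without knockout replicate 1 (adjusted p up to 0.089), and Atp5g3 missed without control replicate 1 or 3 or knockout replicate 3 (0.068 to 0.12). Atp5md, a further dimer subunit, had a difference of the size of that of Atp5g3, 0.76, but a larger SE of 0.29, and did not pass (limma, adjusted p = 0.089). Control replicate 3 was low for Atp5md, at 5.04 against 5.94 and 6.09.

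The peripheral stalk, which holds the head still, gave no call among 4 genes, where 25.5% of all genes were called. Atp5o, the subunit that confers sensitivity to oligomycin, stood at 5.04, 3.58 and 4.75 in knockouts against 3.48 to 3.64 in controls. Knockout replicate 3 alone overlapped the controls, and without it the adjusted p was 0.0052. Atp5j, Atp5h and Atp5pb differed by 0.38 ± 0.21, −0.21 ± 0.32 and −0.11 ± 0.20 and overlapped. Of these, Atp5h lay at 1.07 to 2.20, near or below the lower quartile, so a change in it may have been missed. The pseudogenes Atp5c1-ps and Atp5l-ps1 overlapped between the groups.

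The Atp5k window, chr5:108434350-108434649 on the minus strand of GRCm38.p6, is shown because it matched 3 of the 4 motifs searched.
Atp5k: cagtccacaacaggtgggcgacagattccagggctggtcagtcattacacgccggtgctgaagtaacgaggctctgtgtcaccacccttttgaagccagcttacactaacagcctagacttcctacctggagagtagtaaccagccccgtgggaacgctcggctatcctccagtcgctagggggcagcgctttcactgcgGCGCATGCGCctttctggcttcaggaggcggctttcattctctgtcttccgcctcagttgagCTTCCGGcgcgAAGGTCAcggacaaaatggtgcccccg
It held an NRF1 core beginning 50 bases before the start, an ETS match beginning at base 13 after it and an oestrogen-related receptor match at base 24 after it. The window of Sdhd, which did not pass and is not shown, also matched these 3 motifs. Windows were found for 31 of the 44 genes. The NRF1 core was in windows of 9 of these 31 (29.0%), against 5.19% of 27025 genes in the table, noncoding genes included. The ETS match was in 12 (38.7%, against 9.93%), the YY1 match in 2 (6.45%, against 3.19%) and the oestrogen-related receptor match in 4 (12.9%, against 5.38%). By call, the NRF1 core was in 3 of 10 windows of risers, 1 of 2 of fallers and 5 of 19 of the rest. The ETS match was in 3, 0 and 9 of the same windows, the YY1 match in 0, 0 and 2, and the oestrogen-related receptor match in 3, 0 and 1. These splits by call were not tested.

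**Figure D3:**
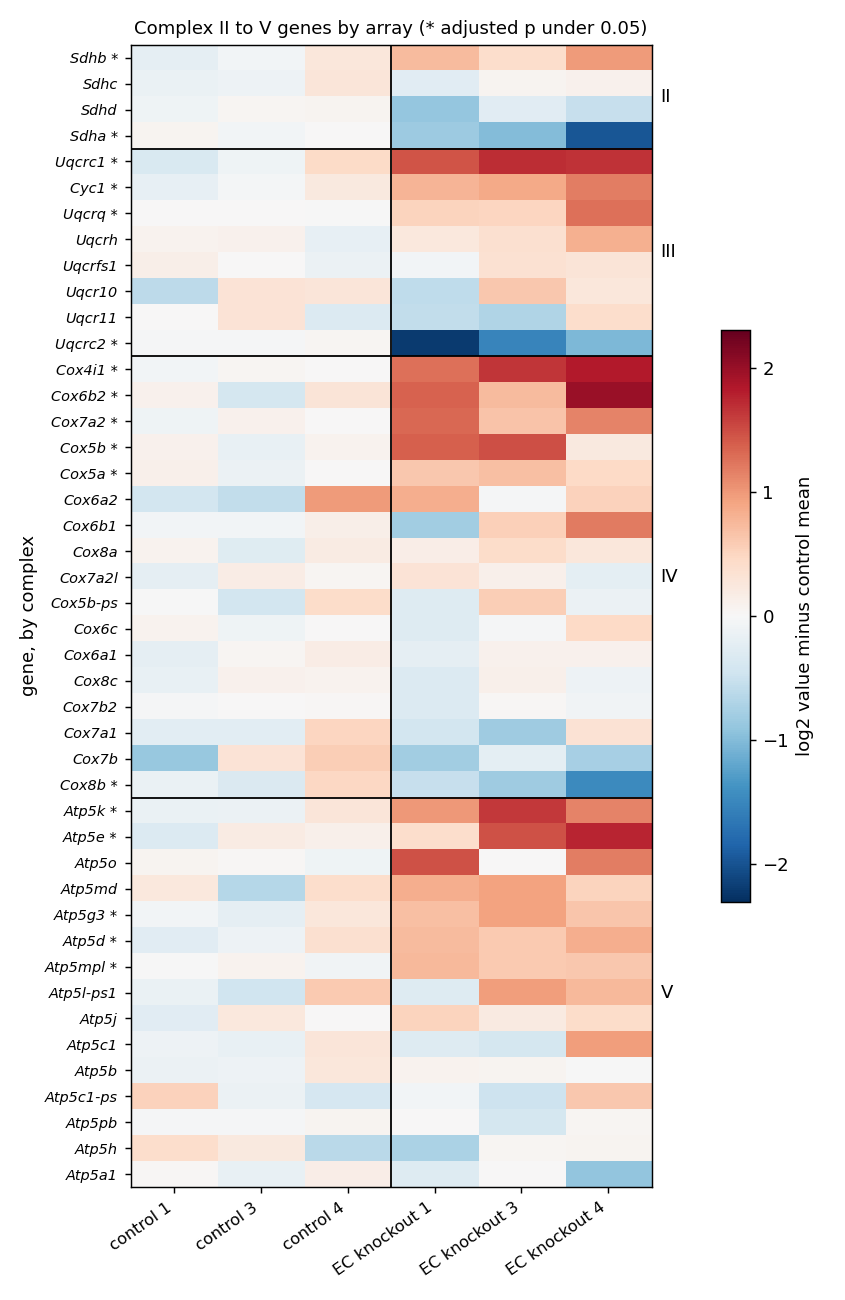
Log2 value minus the control mean (colour) for each of the 44 genes (rows, by complex) on each of the 6 arrays (columns); an asterisk marks an adjusted p under 0.05. Red on the knockout side is shared by the 14 risers on all 3 arrays, whereas genes such as Cox6b1 and Atp5o differ among knockout arrays.

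The knockout arrays did not move by equal amounts. The median over the 44 genes, relative to the control mean, was 0.05 on knockout replicate 1, 0.28 on replicate 3 and 0.44 on replicate 4, and −0.07, −0.06 and 0.13 on control replicates 1, 3 and 4. Replicate 1 had 23 of 44 genes above the control mean, replicate 3 had 32 and replicate 4 had 33. Control replicate 4 had 36. The ranking of arrays by the median thus placed control replicate 4 above knockout replicate 1, and the ranking by the count placed it above every knockout array. Over the 27 genes that did not pass, knockout replicate 1 had a median of −0.29.

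Gene span, from start to end of the gene in RefSeq, was short for these genes. The 41 coding members had a median of 6.41 kb, the 14 risers 4.83 kb and all protein-coding genes 18.5 kb. Among the 3 fallers, Sdha spans 28.0 kb and Uqcrc2 24.3 kb; that of Cox8b is in the shortest of 5 bins of equal size. In the 5 bins of protein-coding genes from shortest to longest span, 14.6%, 20.7%, 15.1%, 10.4% and 5.41% rose, so the share did not increase steadily as span shortened. Of the members in these bins, 7 of 16, 3 of 15, 4 of 8, 0 of 1 and 0 of 1 rose. Falls made up 2.26%, 5.67%, 12.3%, 23.6% and 31.4% of genes, in the same order of bins. With the span trend removed from each array, 6 of 41 members rose and 4 fell, where 12.8% and 13.1% of 19683 genes did. The 6 were Uqcrc1, Cox4i1, Cox7a2, Atp5k, Cox6b2 and Cyc1, and the 4 were Uqcrc2, Sdha, Cox8b and Sdhd.

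Neighbouring lists give the setting of these values. Of 35 complex I subunit genes 9 rose and 1 fell, of 76 mitochondrial ribosomal protein genes 18 and 5, and of 70 cytosolic ribosomal protein genes 16 and 6. The members' 14 and 3 of 44 were not tested against these. Assembly factors gave few calls: 0 of 4 for complex II, 1 of 6 for complex III (Uqcc2, higher by 0.95 ± 0.23), 2 of 21 for complex IV and 1 of 4 for complex V (Atpaf2, higher by 0.89 ± 0.28). For complex IV, Pet100, which helps to build the holoenzyme, rose by 1.13 ± 0.19 (limma, adjusted p = 0.0045), and Cox15, needed to make haem a, stood at −0.64 ± 0.19 (limma, adjusted p = 0.039). Uqcc2 lost its call without control replicate 1 or 4, and Atpaf2 and Cox15 without most arrays (adjusted p up to 0.066, 0.15 and 0.14).

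Genes of the citric acid cycle, to which complex II belongs, fell at 6 of 13 and rose at 0, where 13.0% of all genes fell and 12.5% rose. The median of the list was −0.41. Idh3g, a subunit of isocitrate dehydrogenase, lay between 7.89 and 8.07 in controls, against 6.69 to 6.74 in knockouts, a difference of −1.27 ± 0.18 (limma, adjusted p = 0.0026). Dld, shared by the 2-oxoglutarate and pyruvate dehydrogenases, stood at −1.30 ± 0.27 (limma, adjusted p = 0.0092), and Idh3b at −1.14 ± 0.26 (0.013). Idh3a, Sucla2 and Fh1 also fell, and are named after their values were seen. Without control replicate 1 or 3, only 2 of these 6 genes passed. Idh3b had adjusted p-values up to 0.055 there, whereas Idh3g and Dld passed without each array.

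Among 12 regulators of mitochondrial genes, 3 fell and 1 rose. Ppargc1a, the coactivator PGC-1alpha, stood at 3.92, 3.75 and 3.96 in controls and at 2.86, 2.21 and 2.66 in knockouts. The difference was −1.30 ± 0.22 (limma, adjusted p = 0.0045). Tfb2m, a mitochondrial transcription factor, stood at −1.14 ± 0.20 (0.0053) and Gabpa, the ETS factor named above, at −1.27 ± 0.27 (0.011). Tfb2m had a knockout mean of 1.28, below the lower quartile, so its size is uncertain. Polrmt, the mitochondrial RNA polymerase, rose by 0.98 ± 0.18 (limma, adjusted p = 0.0058). Nrf1 itself did not pass, at −0.43 ± 0.24.

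Of 7 mitochondrial genes linked to hypoxia, 2 rose and 3 fell. Besides Cox4i2, Ndufa4l2, a HIF target of the mitochondrion, rose by 1.16 ± 0.24 (limma, adjusted p = 0.0097). Bnip3 and Bnip3l, receptors for removal of mitochondria, stood at −0.98 ± 0.24 and −0.71 ± 0.22, and Pdk1, which restrains pyruvate dehydrogenase, at −0.63 ± 0.19. Pdk1 missed without any 1 of the 6 arrays (adjusted p up to 0.14). Bnip3 missed without control replicate 3 or 4 (up to 0.061), and Bnip3l passed without knockout replicate 1 alone (up to 0.15).

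**Figure D4:**
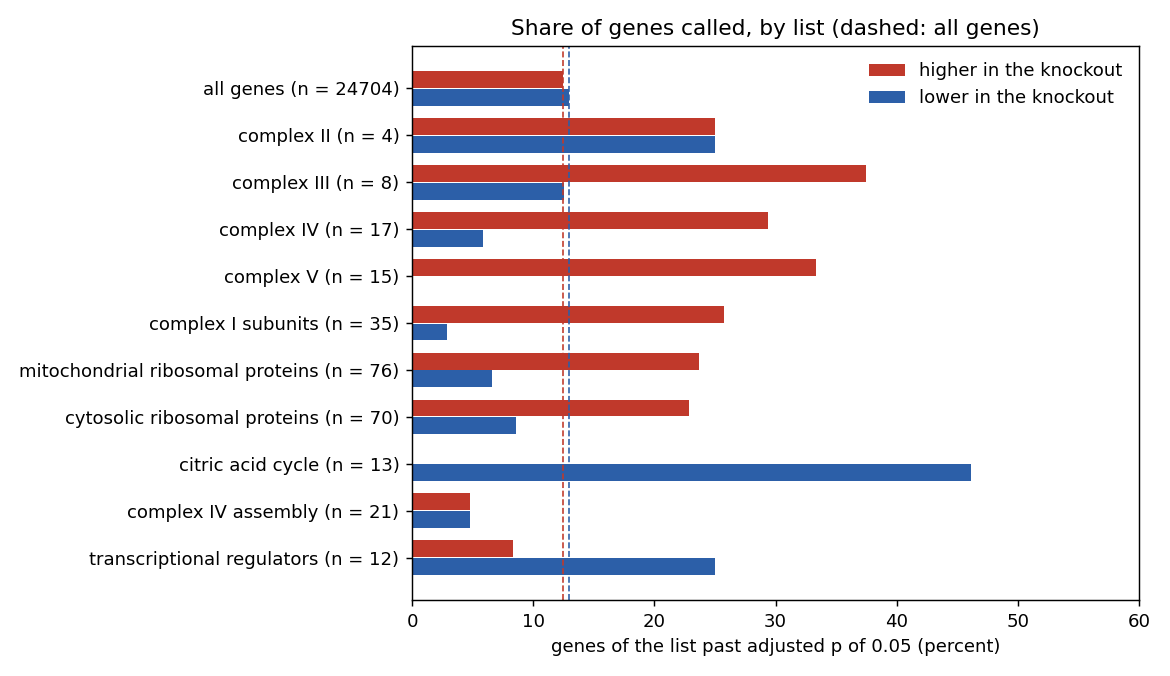
Share of genes in each list (horizontal axis, percent) that rose (red) or fell (blue) at an adjusted p under 0.05; dashed lines mark all 24704 genes, at 12.5% and 13.0%. Complexes II to V lie right of the line for rises, as do complex I subunits (25.7%) and mitochondrial (23.7%) and cytosolic (22.9%) ribosomal proteins. Complex II, with 1 of 4 genes called in each direction, also lies right of the line for falls. The citric acid cycle list has falls at 46.2% and no rises.

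Markers of lung cell types moved with the groups as well. Summed endothelial markers lay at 11.6 to 11.9 on control arrays, against 10.9 to 11.1 on knockout arrays, with 3 of 10 higher and 5 lower. Alveolar macrophage markers summed to 8.66 to 9.32 and 7.75 to 8.29, with 1 of 7 higher and 2 lower, and ciliated cell markers to 7.71 to 7.97 and 8.51 to 8.97, with 2 of 6 higher and 3 lower. Alveolar type 2 markers summed to 13.3 to 13.4 and 12.6 to 13.2 (1 of 8 higher, 2 lower) and type 1 markers to 10.68 to 11.01 and 10.97 to 11.37 (1 of 6 higher, 2 lower). Erythroid markers gave 0 calls among 3, and thymus markers 1 higher and 1 lower among 6. No marker of these lists was below the lower quartile on all 6 arrays. The part of cell composition in the values of the 44 genes was not tested.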

How the data were processed

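RNA from whole mouse lung was measured on 6 single-colour Affymetrix arrays, 3 per group. The authors deposited log2 values, 1 per probe set and array, made with RMA per the submitters' processing notes. Neither its version nor the probe set definition appears in the sources used here. The columns had common quantiles (largest difference 0.00183). There were no detection calls, and precision is limited by having 3 arrays per group.

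Of 25428 probe sets, 24705 had 1 symbol in the platform annotation, and keeping the brighter probe set per symbol left 24704 genes. Dim genes stayed in. Groups were compared with limma 3.58.1 in R 4.3.3 (lmFit, eBayes) with Benjamini-Hochberg adjustment over all genes. p-values measure the spread between these arrays, which the labels do not describe as separate animals in so many words. All 44 members matched RefSeq (GRCm38.p6) by Entrez identifier, which supplied spans and promoter windows. The procedure was tested on simulated data. Alternatives covered filters, unnamed probe sets, scaling, variance model, array weights, a replicate block, span trend (loess, span 0.3), thresholds and leaving out each array.

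Genes named were every member past the threshold, isoform sets, the 2 members of highest mean level per complex, and up to 3 list genes of smallest p per direction. Members and lists were chosen with earlier results of these data known. Markers were summed as log2 of the sum of linear values.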

Additional observations from a re-analysis of the deposited data

How the results depend on the processing

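Scalings, filters on dim genes, unnamed probe sets, an intensity trend and array weights left 11 to 14 members higher and 2 or 3 lower. The count of 14 that rose became 9 with a replicate block, 6 with the span trend removed, 3 at an adjusted p of 0.01, 7 when more than 2-fold was also required, and 4 to 10 with 1 array left out. The count of 3 that fell became 1 at 0.01 and 1 to 3 with 1 array left out. Counts with 1 array left out include the genes named above that did not pass with all arrays. The 6 citric acid cycle genes became 2 at 0.01 and 2 to 6 with 1 array left out. Over all genes the block called 6082 in place of 6292. Deviations of same-numbered arrays correlated at 0.0622, −0.0131 and 0.0038. Control replicate 1 correlated best with the knockout array of its own number, and control replicates 3 and 4 with one of another number. With 3 arrays per group these values cannot decide whether the numbers pair the arrays. The log2 fold change of Cox8b had an adjusted p (limma) of 0.0502 with median scaling, 0.0543 with an intensity trend and 0.0832 with the replicate block. No called member changed sign, and 68 of 254 member-by-setting results lost the call.

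Members that did not pass changed sign in 33 of 393 results; the cause was not tested. With array weights the log2 fold change of Atp5c1-ps was −0.073, that of Sdhc 0.014 and that of Cox6a1 0.032. With the span trend removed they were −0.18 for Uqcr10, −0.12 for Uqcrfs1, −0.24 for Cox6c, −0.10 for Cox7a2l, 0.26 for Cox7b2, −0.011 for Cox8a and −0.24 for Atp5b. Cox6a1 was at 0.020 after a further quantile normalization and 0.004 after median scaling. With 1 array left out, Sdhc ranged from −0.11 to 0.10, Uqcr10 from −0.20 to 0.44, Cox5b-ps from −0.21 to 0.26, Cox6a1 from −0.10 to 0.11, Cox6b1 from −0.13 to 0.86 and Cox6c from −0.16 to 0.22. Cox7a2l ranged from −0.052 to 0.21, Atp5b from −0.027 to 0.17, Atp5c1 from −0.35 to 0.33, Atp5c1-ps from −0.27 to 0.29, Atp5h from −0.52 to 0.056 and Atp5pb from −0.19 to 0.035.

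With 3 arrays per group and no detection calls, dim members (Cox5b, Cox7b, Cox7b2, Cox8c, Atp5c1-ps and Atp5h, under the array median) are least certain. Protein identity of isoforms was not run.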
